A study of Mus musculus with 10 samples.

Results

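The protocadherin genes of the embryonic mouse cortex comprised the protein-coding genes whose symbol starts with Pcdh, and 69 of the 56748 gene identifiers, or of the 21871 protein-coding ones, met that rule. Of these, 57 belonged to the clustered families, with 14 Pcdha, 22 Pcdhb and 21 Pcdhg identifiers, and 12 were non-clustered. A total of 68 distinct symbols was found, because 2 identifiers (ENSMUSG00000007440 and ENSMUSG00000102206) carried the name Pcdha11. RNA-seq read counts per gene came from 5 libraries of E12.5 cortex labelled Emx2 KO and 5 labelled WT. Emx2 encodes a homeobox transcription factor that patterns the dorsal telencephalon, and the libraries set its knockout against wild type. The labels give no allele, strain or sex for either group. They do not say whether a library was 1 embryo or a pool, or whether libraries came from separate litters. P-values therefore measure the spread between libraries, which may in part be technical. Xist stood above the summed Y-linked genes Uty, Ddx3y and Eif2s3y in 1 knockout and 3 wild-type libraries. In the other 4 knockout and 2 wild-type libraries the Y-linked genes were higher. The part of this imbalance in the genotype comparison was not tested.

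Protocadherins are cadherin-family adhesion molecules of the cell surface. In the clustered families each gene contributes a variable exon with its own promoter, and single neurons switch on only some of them, so that neurons carry different combinations of isoforms and recognise their own branches by homophilic binding. Pcdha and Pcdhg transcripts join the variable exon to constant exons shared by the whole cluster, whereas Pcdhb transcripts have none. The non-clustered genes lie apart, and most fall into the δ1 and δ2 groups, which take part in cell sorting, axon growth and synapse formation in the developing brain.

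At E12.5 in the libraries labelled Emx2 KO, 7 of the 12 non-clustered protocadherins (58.3%) and 8 of the 49 clustered ones tested (16.3%) changed at an adjusted p under 0.05, where 22.2% of all genes tested and 26.3% of protein-coding ones did. Pcdh15, known from the tip link of inner-ear hair cells, fell to 0.370 of its wild-type level, and Pcdh17 and Pcdh7 fell by less. Pcdh1, Pcdh8, Pcdh10 and Pcdh9 rose by 1.48- to 1.74-fold. In the clusters 6 Pcdhg genes rose and 2 Pcdhb genes fell, while none of the 9 Pcdha genes tested passed the threshold. Of all genes 12.9% rose and 9.33% fell, so the share of Pcdhb genes that fell, 2 of 20, was near that of all genes. Clustered genes were counted at lower levels on average than non-clustered ones, and the part of level in the shares called was not tested.

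Promoter sequences are shown for 4 non-clustered genes, the pair with the lowest adjusted p among those that fell (Pcdh15, Pcdh17) and a pair of the δ2 group among those that rose (Pcdh10, Pcdh8). The RefSeq promoter table of build GRCm38.p6 held an entry for 9 of the 12 non-clustered genes and not for Pcdh1, Pcdh12 or Pcdh11x, nor for any clustered gene. Each line gives the 250 bases before the annotated gene start, 5′ to 3′ on the gene's own strand, and capitals mark the letters TATAAA.
Pcdh15 (chr10:73821617-73821866, plus strand): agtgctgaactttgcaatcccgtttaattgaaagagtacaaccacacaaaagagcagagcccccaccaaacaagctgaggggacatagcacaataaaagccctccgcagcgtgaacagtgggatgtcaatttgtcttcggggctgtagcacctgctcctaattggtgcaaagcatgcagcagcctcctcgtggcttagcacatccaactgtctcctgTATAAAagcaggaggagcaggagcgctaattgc
Pcdh17 (chr14:84443313-84443562, plus strand): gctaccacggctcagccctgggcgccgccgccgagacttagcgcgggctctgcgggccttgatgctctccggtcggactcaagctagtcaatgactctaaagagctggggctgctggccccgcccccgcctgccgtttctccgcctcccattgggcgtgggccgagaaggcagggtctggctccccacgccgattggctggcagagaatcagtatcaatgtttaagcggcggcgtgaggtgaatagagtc
Pcdh10 (chr3:45378148-45378397, plus strand): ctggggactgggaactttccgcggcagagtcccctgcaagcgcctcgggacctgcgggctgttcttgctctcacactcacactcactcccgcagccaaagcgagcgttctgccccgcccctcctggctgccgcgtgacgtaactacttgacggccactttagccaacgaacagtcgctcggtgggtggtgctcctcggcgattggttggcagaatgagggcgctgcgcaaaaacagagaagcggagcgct
Pcdh8 (chr14:79771313-79771562, minus strand): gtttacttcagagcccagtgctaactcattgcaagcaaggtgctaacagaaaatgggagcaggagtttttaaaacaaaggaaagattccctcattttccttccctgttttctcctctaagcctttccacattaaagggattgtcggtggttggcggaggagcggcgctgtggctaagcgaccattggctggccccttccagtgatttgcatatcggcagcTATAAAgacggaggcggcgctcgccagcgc

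The motif TATAAA, searched on both strands of the 300-base entries (250 bases before and 50 from the start), was found in Pcdh15 and Pcdh8 alone among the 9 genes. It began at position -33 in Pcdh15 and at -30 in Pcdh8, counted from the gene start and on the gene's strand in both. Of all 27025 promoters of that length, 14.2% held it on either strand. The homeodomain site TAATTA, which reads the same on both strands, was in none of the 9 and in 5.31% of all promoters. That says only that those letters are not in these windows. The shorter letters TAAT, which the Pcdh15 sequence above holds and the Pcdh8 sequence holds on the opposite strand, were not counted. CpG dinucleotides numbered 8 in the Pcdh15 entry, 14 in Pcdh8, 24 in Pcdh10 and 26 in Pcdh17, against a median of 7 over all promoters, and the GC content was 50.7%, 54.3%, 62.3% and 65.0% against a median of 52.7%. Of the pair with TATAAA, Pcdh15 fell and Pcdh8 rose in the knockout, and of the CpG-richer pair, Pcdh17 fell and Pcdh10 rose.

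The libraries held between 9720840 and 35674113 counts, of which protocadherins took 0.0874% to 0.102%. The sample titles end in 1 of 3 codes that the labels do not explain, 241022 with 2 libraries of each genotype, 14922 with 2 of each and 31022 with 1 of each. Knockout replicates 1, 2 and 4 and wild-type replicates 3 and 4 held over 20000000 counts and the other libraries fewer, so that within each code genotype and library size cannot be told apart. Within the large or the small libraries no code held both genotypes, so there genotype and code cannot be told apart. Emx2 itself stood at 94.5 to 146 CPM (reads of the gene, scaled to a common library total) in the knockout libraries and at 174 to 207 CPM in wild type (log2 fold change -0.59 ± 0.11 SE, adjusted p = 0.00271, edgeR), so its transcript was lower but still counted in all 5. CPM values are scaled by edgeR's TMM factors, and every fold change is knockout over wild type on the log2 scale with its SE and n = 5 per genotype. In bulk tissue, fewer cells of a type and less RNA per cell cannot be told apart.

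The libraries labelled cortex held markers of several cell types, and none of the markers listed was at 0 counts. In the knockout 6 of 8 choroid plexus markers and 6 of 9 cortical hem markers fell, with sums of 57.5 to 93.0 CPM against 254 to 306 CPM and of 88.0 to 210 CPM against 277 to 408 CPM. Of 7 Cajal-Retzius cell markers 3 fell and 2 rose, and their sum was 178 to 206 CPM against 288 to 316 CPM. Among radial glia markers 7 of 9 rose (3379 to 3826 CPM against 2930 to 3031 CPM), among intermediate progenitor markers 5 of 6 (1030 to 1332 CPM against 757 to 976 CPM), among neuron markers 5 of 9 (4159 to 5234 CPM against 2847 to 4391 CPM) and among subpallium markers 6 of 10 (196 to 704 CPM against 102 to 297 CPM). Of 11 meningeal and mesenchymal markers 1 rose and 3 fell, and of 6 pericyte markers 1 fell. None of the 6 microglia, 8 blood or 10 endothelial markers was called. Of all genes, 12.9% were called higher and 9.33% lower. The part of any of these markers in a protocadherin result was not tested.

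Of the 69 protocadherins 61 passed the filter on low counts, 9 of 14 Pcdha, 20 of 22 Pcdhb, 20 of 21 Pcdhg and all 12 non-clustered genes. By edgeR's quasi-likelihood test, adjusted over all 18163 genes tested, 10 were called higher and 5 lower at an adjusted p under 0.05, where 22.2% of all genes were called, 12.9% higher and 9.33% lower. For non-clustered genes the count was 4 higher and 3 lower, or 58.3% of 12, a share above the background. For clustered genes it was 6 higher and 2 lower, or 16.3% of 49, a share below the background. Clustered genes were counted at lower levels on average, with 57 summing to 262 CPM in wild type against 648 CPM for 12 non-clustered genes. The part of level in these shares was not tested. The knockout and wild-type ranges did not overlap for 5 non-clustered and 4 clustered genes, and for 16.7% of all genes. The median log2 fold change was 0.079 over the clustered genes, -0.029 over the non-clustered genes and -0.0065 over all genes. The split of all called genes into 2345 higher and 1694 lower moved with the scaling, to 1899 and 2245 with upper-quartile factors and to 1786 and 2464 with total counts alone. Under either scaling 4 non-clustered genes were called higher and 4 lower, and 5 clustered genes higher and 2 lower.

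**Figure D1:**
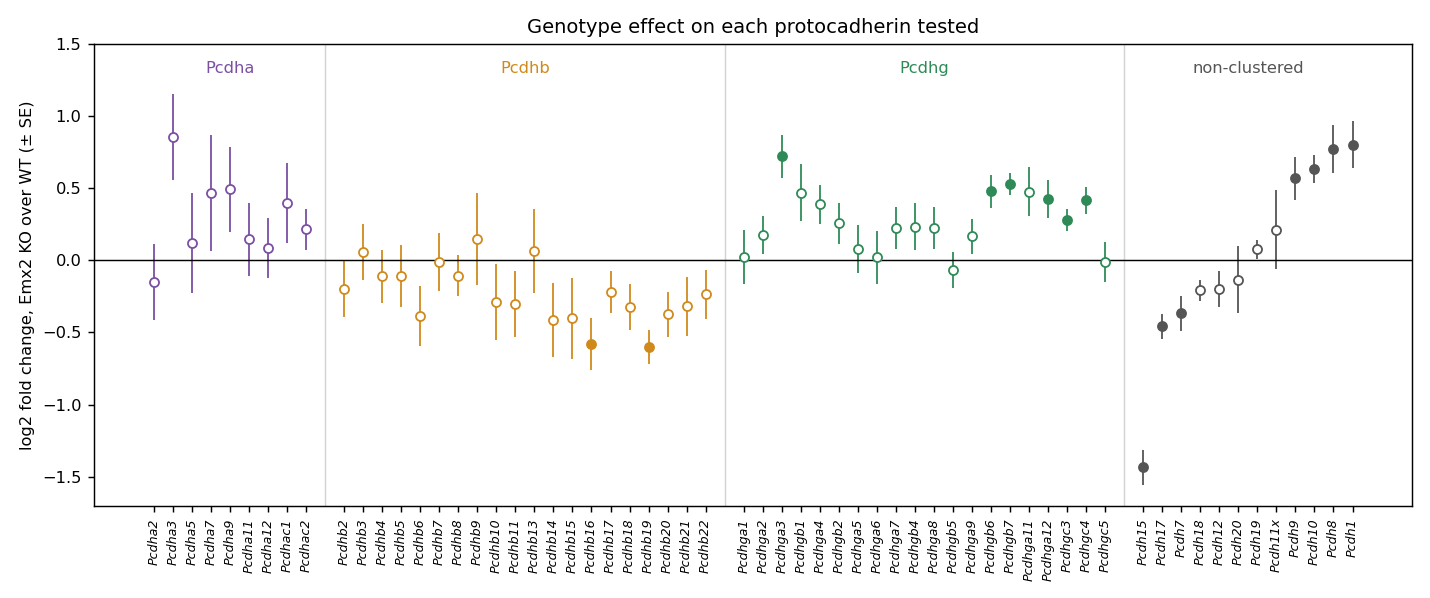
Log2 fold change of knockout over wild type (y axis, bars are SE, n = 5 per genotype) for the 61 protocadherins tested, in cluster order for Pcdha, Pcdhb and Pcdhg and by size for non-clustered genes, with filled points past an adjusted p of 0.05. Non-clustered genes run from -1.43 for Pcdh15 to 0.80 for Pcdh1, while 17 of 20 Pcdhb points lie below 0 and 18 of 20 Pcdhg points above it.

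Pcdh15 pairs with Cdh23 to form the tip link that opens the mechanotransduction channel of hair cells, and mutations in it cause Usher syndrome. It stood at 11.1, 10.7, 11.6, 11.8 and 13.8 CPM in wild-type replicates 1 to 5 and at 4.33, 4.68, 5.34, 3.92 and 3.52 CPM in knockout replicates 1 to 5. Every knockout library was below every wild-type library by a wide gap. Knockout averaged 4.36 ± 0.697 CPM against 11.8 ± 1.20 CPM (SD, n = 5), or -1.43 ± 0.12 as log2 fold change (adjusted p = 1.29e-05, edgeR). Within code 241022 the log2 fold change was -1.27 and within 14922 it was -1.41. Of the other tip-link and hair-bundle partners listed, 5 of 9 passed the filter and only Cdh23 was called. Its level was 3.47 ± 1.23 CPM in knockout and 1.39 ± 0.683 CPM in wild type, a log2 fold change of 1.25 ± 0.35 (adjusted p = 0.0220, edgeR), opposite in direction to Pcdh15. The call for Cdh23 was lost without knockout replicate 2 or wild-type replicate 4 (highest adjusted p = 0.0594, edgeR). The choroid plexus, hem and Cajal-Retzius marker sums given above were also lower in all 5 knockout libraries. The genotypes did not overlap for 16.7% of all genes, and a link of these sums to Pcdh15 was not tested.

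Pcdh12, known as a homophilic adhesion protein of endothelial cell junctions, averaged 15.4 ± 2.57 CPM in knockout and 17.7 ± 2.43 CPM in wild type. Its log2 fold change of -0.20 ± 0.12 did not pass (adjusted p = 0.298, edgeR), with a 95% interval of -0.47 to 0.07. None of 10 endothelial markers was called, and their sum was 189 to 327 CPM in knockout and 232 to 311 CPM in wild type. Pcdh20 was the lowest non-clustered gene in CPM, at 2.78 ± 0.722 and 2.95 ± 0.845 CPM, and its interval of -0.63 to 0.37 leaves changes of both directions (adjusted p = 0.748, edgeR).

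In the δ2 group (Pcdh8, Pcdh10, Pcdh17, Pcdh18 and Pcdh19) 2 genes rose, 1 fell and 2 were not called. Of all genes, 12.9% were called higher and 9.33% lower. Pcdh10 recruits the WAVE actin-regulating complex to cell contacts and guides the growth of forebrain axons in mice. Its level was 70.2, 82.6, 84.8, 80.6 and 58.9 CPM in wild-type replicates 1 to 5 and 108, 117, 115, 135 and 114 CPM in knockout replicates 1 to 5. The groups were apart, with the lowest knockout library above the highest wild-type one. The change was 0.63 ± 0.10 (118 ± 10.1 against 75.4 ± 10.8 CPM, adjusted p = 0.000725, edgeR), and it was 0.56 within code 241022 and 0.46 within 14922.

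Pcdh8, or arcadlin, is induced by activity in rat neurons and drives N-cadherin from the synaptic surface. Wild-type replicates 1 to 5 gave 10.3, 19.1, 14.1, 11.03 and 12.1 CPM and knockout replicates 1 to 5 gave 18.2, 23.7, 28.4, 21.3 and 22.5 CPM. Only wild-type replicate 2 reached into the knockout range, where it passed knockout replicate 1. Its rise was 0.77 ± 0.17 as log2 fold change (22.8 ± 3.71 against 13.3 ± 3.55 CPM, adjusted p = 0.00682, edgeR), with 0.50 within code 241022 and 1.01 within 14922. Of the within-code values only that of 14922 passed the threshold.

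Pcdh17 also recruits the WAVE complex and supports the joint growth of axons in mice, and it moved the other way. It was counted at 51.9, 57.9, 53.3, 53.8 and 51.6 CPM in wild-type replicates 1 to 5 and at 40.9, 38.1, 47.3, 31.8 and 38.1 CPM in knockout replicates 1 to 5. The groups did not overlap, and the knockout libraries were the more spread. On the log2 scale the fold change was -0.46 ± 0.09 (39.2 ± 5.60 against 53.7 ± 2.52 CPM, adjusted p = 0.00246, edgeR). Within code 241022 it was -0.47 and within 14922 it was -0.33, neither past the threshold with 2 libraries per genotype.

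Pcdh18, which binds the reelin-pathway adaptor Dab1, and Pcdh19, mutated in an X-linked epilepsy of humans, had the highest wild-type CPM of all protocadherins and were not called. Pcdh18 averaged 94.0 ± 9.07 CPM in knockout and 109 ± 8.43 CPM in wild type, a log2 fold change of -0.21 ± 0.07 that narrowly missed the threshold (adjusted p = 0.0546, edgeR). With the title code as a block it passed (adjusted p = 0.0355, edgeR). It passed under 11 of 23 alternatives in all, among them the fits without knockout replicate 4 or 5 or wild-type replicate 3 or 4 (lowest adjusted p of these 0.0379, edgeR). Pcdh19 averaged 266 ± 23.3 and 252 ± 19.3 CPM, and the interval of its log2 fold change was -0.07 to 0.22 (adjusted p = 0.478, edgeR). Being X-linked, it was also read by Xist level: it lay between 227 and 259 CPM in the 3 wild-type libraries with high Xist, at 288 CPM in the 1 such knockout library, between 248 and 280 CPM in the 2 other wild-type libraries and between 231 and 286 CPM in the 4 other knockout libraries.

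In the δ1 group (Pcdh1, Pcdh7, Pcdh9 and Pcdh11x) 2 genes rose, 1 fell and 1 was not called, beside the same shares of all genes (12.9% higher, 9.33% lower). Pcdh1 is an adhesion protein of epithelia and serves as an entry receptor for some hantaviruses. Wild-type replicates 1 to 5 held 21.1, 36.0, 28.8, 24.7 and 20.8 CPM and knockout replicates 1 to 5 held 45.2, 44.4, 58.2, 46.5 and 36.1 CPM. The groups met but did not cross, since knockout replicate 5 stood just above wild-type replicate 2. It had the highest log2 fold change of the 12 non-clustered genes, 0.80 ± 0.16 (46.1 ± 7.91 against 26.3 ± 6.31 CPM, adjusted p = 0.00497, edgeR), with 0.65 within code 241022 and 0.81 within 14922. Neither within-code value passed the threshold, and the call was also lost in the small libraries.

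Pcdh9 is a δ1 protein of cortical and other neurons. Its wild-type replicates 1 to 5 gave 39.4, 34.1, 42.7, 42.1 and 22.0 CPM and its knockout replicates 1 to 5 gave 55.3, 47.3, 53.6, 57.7 and 56.6 CPM. The knockout libraries all lay above the wild-type ones, and wild-type replicate 5 was the lowest. As log2 fold change the rise was 0.57 ± 0.15 (54.1 ± 4.09 against 36.1 ± 8.55 CPM, adjusted p = 0.0196, edgeR), 0.48 within code 241022 and 0.37 within 14922. Of the within-code values only that of 14922 passed the threshold. Of the marker sums given above, those of radial glia and intermediate progenitors were higher in all 5 knockout libraries. Those of neurons and subpallium overlapped between genotypes. The genotypes did not overlap for 16.7% of all genes, and a link of any marker sum to Pcdh1, Pcdh9 or Pcdh10 was not tested.

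Pcdh7, known as NF-protocadherin for its role in ectodermal adhesion in Xenopus, was called lower by a small margin. Wild-type replicates 1 to 5 held 39.5, 43.7, 41.4, 40.3 and 31.3 CPM and knockout replicates 1 to 5 held 23.7, 29.1, 35.8, 28.6 and 36.1 CPM. The groups overlapped through wild-type replicate 5, which lay below knockout replicates 3 and 5. The log2 fold change was -0.37 ± 0.12 (adjusted p = 0.0487, edgeR), and -0.66 within code 241022 against -0.19 within 14922, neither of these past the threshold. With library size as a block the call was lost (adjusted p = 0.0562, edgeR), and it was lost in 12 of 23 alternatives in all, including the fits without knockout replicate 1, 2 or 4 or without wild-type replicate 1, 2, 3 or 4, where the highest adjusted p was 0.0990 (edgeR).

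Pcdh11x, the X-linked δ1 gene, averaged 12.1 ± 4.95 CPM in knockout and 10.3 ± 3.18 CPM in wild type and was not called (log2 fold change 0.21 ± 0.27, 95% interval -0.39 to 0.81, adjusted p = 0.648, edgeR). Its sign turned to -0.050 without knockout replicate 3, which held 20.5 CPM, and to -0.55 within code 241022. By Xist level it stood at 7.96 CPM in the 1 knockout library with high Xist and at 9.13 to 15.7 CPM in the 3 such wild-type libraries. In the others it lay between 9.06 and 20.5 CPM in 4 knockout libraries and between 7.31 and 10.1 CPM in 2 wild-type libraries.

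**Figure D2:**
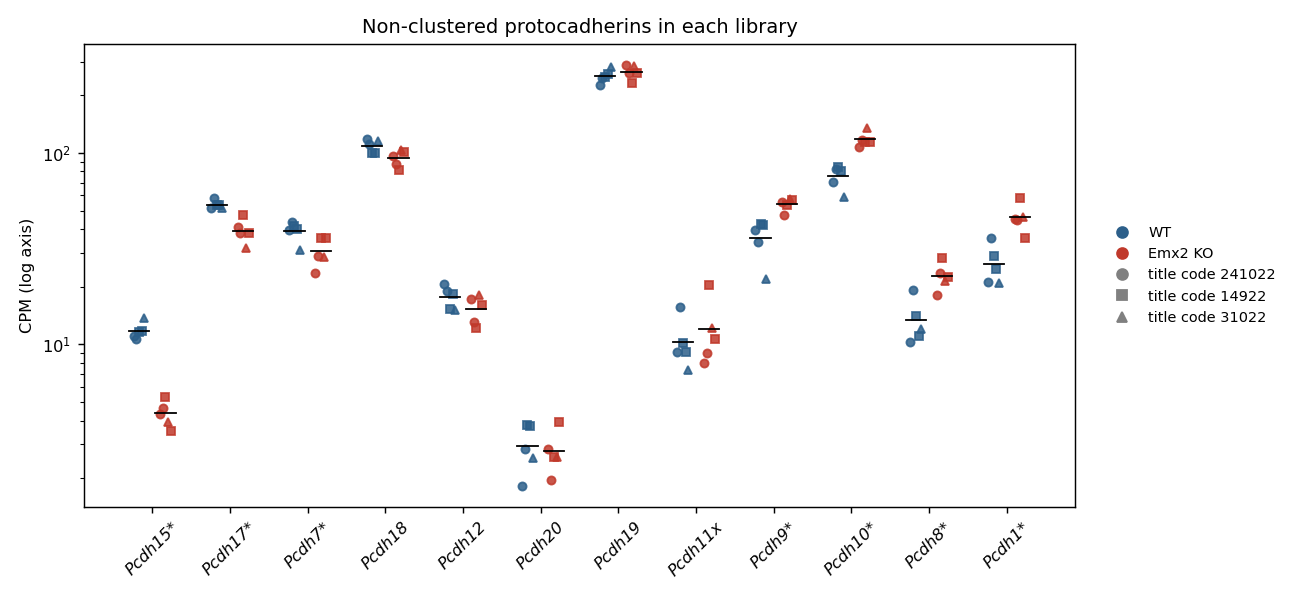
CPM (log axis) of the 12 non-clustered protocadherins in each of the 5 WT and 5 Emx2 KO libraries, ordered by fold change, with bars at the mean, marker shape for the title code and an asterisk for genes past an adjusted p of 0.05. Pcdh15, Pcdh17, Pcdh9, Pcdh10 and Pcdh1 have no overlap between genotypes, and Pcdh19 is the highest gene in every library.

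The clustered genes all lie on chromosome 18, and reads in exons that several of them share cannot be given to 1 gene. By the annotation every Pcdha gene shared exonic bases with the 13 others and every Pcdhg gene with the 20 others. Pcdhb genes shared none, except Pcdhb21 and Pcdhb22 with each other. Pcdhga10 had 4732 exonic bases of which 0 belonged to no other gene, and it was listed at 0 counts in all 10 libraries. Pcdha4, with 404 bases of its own, and the second Pcdha11 identifier (ENSMUSG00000102206), with 1268, were also too low to be tested. Counts did not follow the length of own sequence alone, since Pcdha1 with 2489 such bases and Pcdha8 with 2478 were untested at 0.126 and 0.259 CPM in wild type, while Pcdhga11 with 1256 stood at 7.66 CPM and Pcdhgc3 with 1821 at 34.7 CPM.

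In the Pcdha cluster 0 of 9 genes tested were called, where 22.2% of all genes were. Fold changes were above 0 for 8 of 9, with a median of 0.21, and for 8873 of all 18163 genes. Within code 241022 3 of 10 tested there were above 0 (median -0.14) and within 14922 8 of 10 (median 0.55). The part of count level in the lack of calls was not tested. Only Pcdha3 had an unadjusted p under 0.05, with 1.93 ± 0.786 CPM in knockout, 1.004 ± 0.308 CPM in wild type and a log2 fold change of 0.85 ± 0.30 (adjusted p = 0.0598, edgeR), and limma-voom called 0 Pcdha genes. DESeq2, edgeR with the title code as a block and edgeR without knockout replicate 4 each called 1 Pcdha gene higher. Pcdha was also the least counted cluster, with a sum of 23.7 ± 4.71 CPM per library in knockout and 19.5 ± 2.28 CPM in wild type over its 14 identifiers. Pcdhac2, a C-type isoform needed for the even spacing of serotonergic axons in mice, was its most abundant gene. It stood at 8.06, 8.70, 10.01, 8.30 and 7.72 CPM in wild-type replicates 1 to 5 and at 8.39, 9.35, 11.4, 8.09 and 13.1 CPM in knockout replicates 1 to 5, and the ranges overlapped. Its log2 fold change was 0.21 ± 0.14 (95% interval -0.09 to 0.52, adjusted p = 0.321, edgeR). Pcdha12, next in level, had 0.08 ± 0.21 (95% interval -0.36 to 0.53, adjusted p = 0.830, edgeR).

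Pcdhb genes encode isoforms with a variable exon alone. Of 20 tested, 17 had a fold change below 0, 2 were called lower (where 9.33% of all genes were) and none higher, and the median was -0.26. Pcdhb19 was counted at 8.81, 11.8, 8.90, 8.00 and 9.44 CPM in wild-type replicates 1 to 5 and at 5.996, 5.94, 7.04, 6.01 and 5.94 CPM in knockout replicates 1 to 5. All knockout libraries were below all wild-type libraries, and knockout replicate 3 stood above the other 4. The log2 fold change was -0.60 ± 0.12 (6.18 ± 0.479 against 9.39 ± 1.45 CPM, adjusted p = 0.00299, edgeR), -0.79 within code 241022 and -0.39 within 14922. Neither within-code value passed the threshold.

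Pcdhb16 was called lower at -0.58 ± 0.18 (3.72 ± 0.425 against 5.57 ± 1.605 CPM, adjusted p = 0.0364, edgeR). Its wild-type libraries held 5.24, 8.26, 5.34, 5.04 and 3.96 CPM and its knockout libraries 3.64, 3.45, 3.78, 4.41 and 3.32 CPM, so the groups overlapped through knockout replicate 4 and wild-type replicate 5. The call was lost with the title code as a block (adjusted p = 0.0518, edgeR) and with library size as a block (adjusted p = 0.0527, edgeR). It was lost in 14 of 23 alternatives in all, among them the fits without knockout replicate 1, 2, 3 or 5 or wild-type replicate 1, 2, 3 or 4 (highest adjusted p of these 0.0787, edgeR). Pcdhb17, the most abundant Pcdhb gene in wild type, had -0.22 ± 0.14 (8.05 ± 1.28 against 9.41 ± 1.74 CPM, adjusted p = 0.322, edgeR).

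The number of Pcdhb fold changes below 0 differed between title codes, each with 2 libraries per genotype. The genes were read in the same libraries, so they are not replicates of one another. Within code 241022 all 20 fold changes were below 0 with a median of -0.60, whereas within code 14922 only 8 of 20 were below 0 and the median was 0.09. Summed over the 22 genes, Pcdhb stood at 82.1, 101, 73.0, 72.1 and 68.9 CPM in wild-type replicates 1 to 5 and at 59.9, 60.2, 82.4, 64.2 and 63.8 CPM in knockout replicates 1 to 5. The knockout libraries were the 4 lowest but for replicate 3 of code 14922, which was above 4 of the wild-type libraries, and wild-type replicate 2 of code 241022 was the highest of all. The difference of the genotype effect between these codes was tested as an interaction in edgeR over their 8 libraries. Knockout libraries were the large ones in 241022 and the small ones in 14922. That interaction and a difference between large and small libraries therefore cannot be told apart. None of 62 protocadherins passed, against 1.64% of all genes, and the lowest adjusted p was 0.174 for Pcdhb22 (edgeR). An unadjusted p under 0.05 was found for 11, but the share of all genes on that measure was not computed. By library size, 19 of 20 Pcdhb fold changes were below 0 in the large libraries and 16 of 20 in the small ones. In these fits by size the genotypes shared no code, so genotype and code cannot be told apart.

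**Figure D3:**
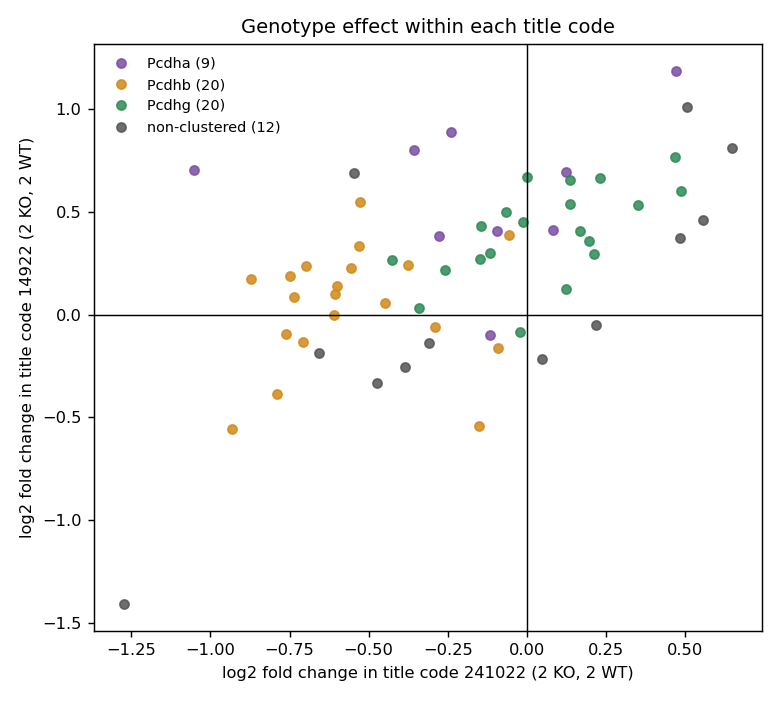
Log2 fold change of knockout over wild type within title code 241022 (x axis) and within 14922 (y axis), each from 2 libraries per genotype, with 1 point per protocadherin tested and colour for the class. All 20 Pcdhb points lie left of 0 and 8 of 20 lie below 0 on the y axis, while 10 of 20 Pcdhg points lie right of 0 and 19 of 20 above it.

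The Pcdhg cluster, whose loss in mice causes the death of spinal interneurons, held 6 called genes, all higher, among 20 tested. That is 30% of those tested, where 12.9% of all genes were called higher. The count was 3 in the large libraries, 1 in the small libraries, 0 in code 241022 and 3 in code 14922. Calls over all genes went from 4039 to 3296, 626, 530 and 1710 in the same 4 fits. Non-clustered calls stayed at 7 in the large libraries. Fold changes were above 0 for 18 of 20, or for 16 of 20 with upper-quartile factors or total counts alone, and the median was 0.24. Within code 241022 10 of 20 were above 0 (median 0.06) and within 14922 19 of 20 (median 0.42), with 13 of 20 in the large and 19 of 20 in the small libraries. The genotypes shared no code within a size class and no size class within a code. The 6 called genes were Pcdhga3, Pcdhgb6, Pcdhgb7, Pcdhga12, Pcdhgc3 and Pcdhgc4. Of these, 5 lay in the 3′ part of the cluster, at places 14, 16, 18, 19 and 20 of 21, with Pcdhga3 at place 3. In that part Pcdhga11 at place 17 (adjusted p = 0.0654, edgeR) and Pcdhgc5 at place 21 (adjusted p = 0.969, edgeR) were not called. Pcdhga10 at place 15 was not tested. The part of count level in this order was not tested.

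Pcdhgb7 had the lowest adjusted p of all clustered genes. Wild-type replicates 1 to 5 held 10.1, 10.9, 10.9, 9.46 and 10.2 CPM and knockout replicates 1 to 5 held 14.3, 15.2, 15.0, 14.0 and 16.1 CPM. The groups were well apart, with little spread in either. The rise was 0.53 ± 0.07 (14.9 ± 0.826 against 10.3 ± 0.614 CPM, adjusted p = 0.000362, edgeR), 0.49 within code 241022 and 0.60 within 14922. Of the within-code values only that of 14922 passed the threshold.

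Pcdhga3 had the highest fold change of the called clustered genes. Its wild-type libraries held 5.24, 5.29, 5.11, 6.52 and 4.37 CPM and its knockout libraries 7.37, 7.16, 11.3, 9.97 and 8.64 CPM, again with no overlap. Its log2 fold change was 0.72 ± 0.15 (adjusted p = 0.00463, edgeR), 0.47 within code 241022 and 0.77 within 14922. Neither within-code value passed the threshold. Pcdhgb6 rose by 0.48 ± 0.12 (16.2 ± 2.08 against 11.7 ± 1.499 CPM, adjusted p = 0.0105, edgeR), with knockout replicate 2 at 12.7 CPM inside the wild-type range and 0.23 within code 241022 against 0.67 within 14922. Of its within-code values only that of 14922 passed the threshold. Pcdhga12 rose by 0.43 ± 0.13 (11.4 ± 1.37 against 8.45 ± 1.47 CPM, adjusted p = 0.0349, edgeR), a call lost with the title code as a block (adjusted p = 0.0503, edgeR). It was lost in 13 of 23 alternatives in all, including the fits without knockout replicate 1, 3, 4 or 5 or wild-type replicate 3 or 5 (highest adjusted p of these 0.0910, edgeR).

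The C-type genes of this cluster are read more constantly across neurons than the others. Pcdhgc4 is the isoform that interneuron survival depends on in mice. Its wild-type libraries held 9.23, 9.93, 9.84, 9.49 and 8.53 CPM and its knockout libraries 12.4, 12.0, 14.4, 10.7 and 13.6 CPM, with no overlap, and the log2 fold change was 0.42 ± 0.09 (adjusted p = 0.00733, edgeR). Pcdhgc3, which promotes dendrite branching in cortical neurons of mice and binds Axin1, was the most abundant clustered gene. Its wild-type libraries held 33.1, 40.3, 33.4, 33.1 and 33.4 CPM and its knockout libraries 45.9, 38.0, 46.3, 41.2 and 39.2 CPM. Wild-type replicate 2 alone passed into the knockout range, above replicates 2 and 5 of that group. The log2 fold change was 0.28 ± 0.08 (42.1 ± 3.82 against 34.7 ± 3.16 CPM, adjusted p = 0.0194, edgeR), and the call was lost without wild-type replicate 4 (adjusted p = 0.0528, edgeR). Within code 241022 Pcdhgc3 had 0.19 and Pcdhgc4 0.35, and within 14922 they had 0.36 and 0.53. Of these within-code values only that of Pcdhgc4 within 14922 passed the threshold.

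Summed over the 21 Pcdhg genes, the level was 160, 181, 162, 169 and 146 CPM in wild-type replicates 1 to 5 and 188, 179, 225, 205 and 215 CPM in knockout replicates 1 to 5 (202 ± 19.1 against 164 ± 12.9 CPM). Only knockout replicate 2 lay below wild-type replicate 2. The Pcdhb sum was 66.1 ± 9.33 against 79.4 ± 12.99 CPM, so the Pcdhg sum was higher and the Pcdhb sum lower in the knockout by their means, with overlapping ranges in both. Non-clustered genes summed to 705 ± 26.1 CPM in knockout and 648 ± 23.0 CPM in wild type, with knockout replicate 2 (678 CPM) just below wild-type replicate 2 (679 CPM).

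**Figure D4:**
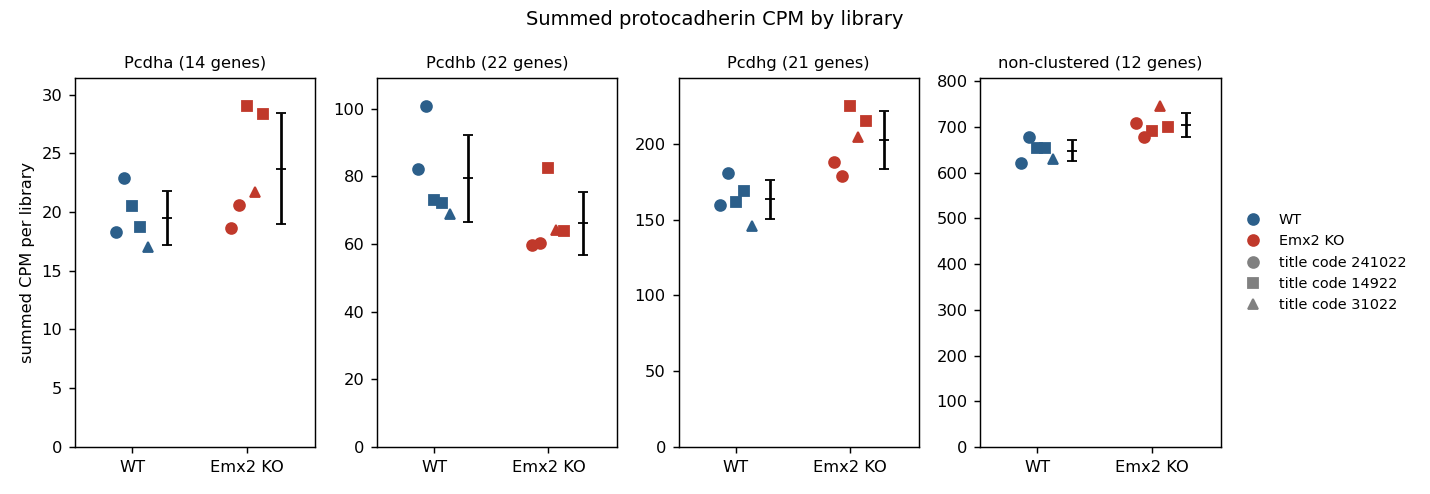
Summed CPM per library for the 3 clusters and the non-clustered genes in WT and Emx2 KO, with 1 point per library, marker shape for the title code and mean ± SD beside the points. The Pcdhg means are 164 CPM in WT and 202 CPM in knockout and the Pcdhb means 79.4 and 66.1 CPM, and in each panel the genotypes overlap.

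Levels can be compared between genes only per length, here as CPM per kilobase of exonic sequence that belongs to no other gene. In wild type Pcdh19 (24.2 ± 1.85), Pcdh18 (20.3 ± 1.57) and Pcdhgc3 (19.0 ± 1.74) were highest on that scale, and Pcdh18 and Pcdhgc3 did not differ beyond their SD. The next were Pcdhga11 at 6.10, Pcdhgb7 at 5.66, Pcdh9 at 5.32, Pcdh10 at 4.79 and Pcdh7 at 4.69. Pcdh15 was at 0.496, near Pcdh20 at 0.538 and below Pcdh11x at 0.737. The most abundant Pcdha and Pcdhb genes, Pcdhac2 and Pcdhb17, were at 2.83 and 2.02. With all exonic bases as the length, 9 of the 23 named protocadherins moved by over 1 SD and this order changed. Pcdhgc3 then stood at 6.30, Pcdhga11 at 1.61 and Pcdhgb7 at 2.19, while Pcdh18 stayed at 20.3 and Pcdh19 at 24.1, so the closeness of Pcdhgc3 to Pcdh18 holds only per base of its own sequence.

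**Figure D5:**
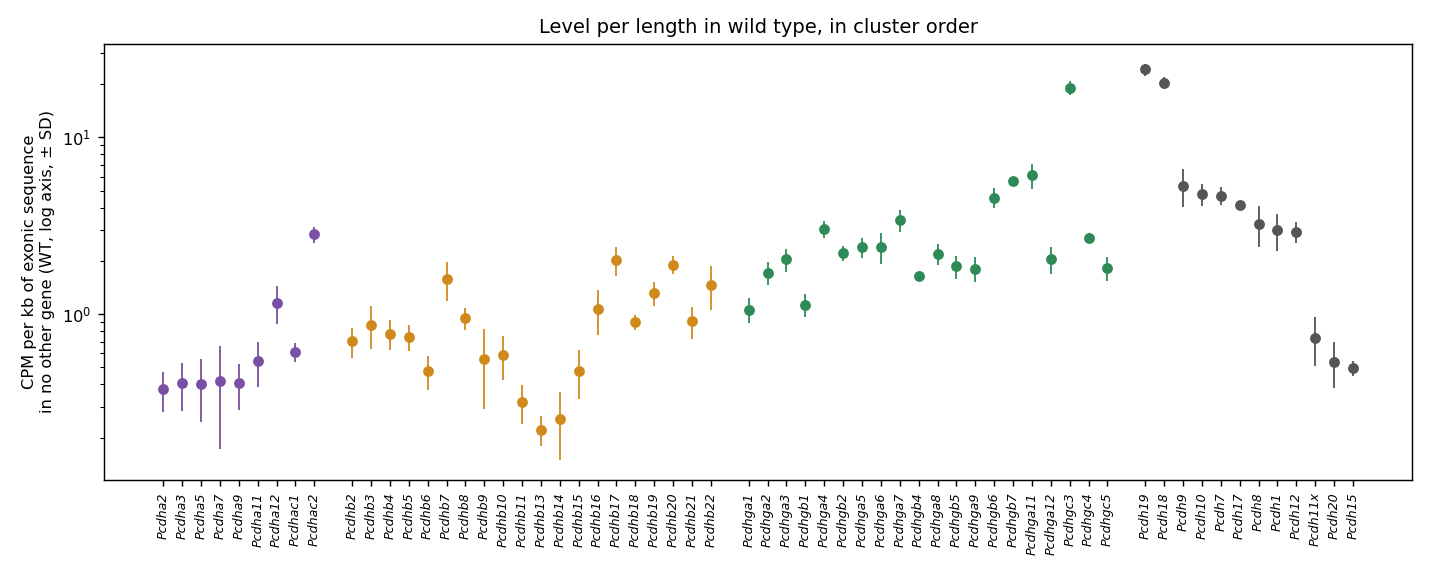
Wild-type level of the tested protocadherins in CPM per kilobase of exonic sequence in no other gene (log axis, bars are SD over 5 libraries), in cluster order and, for non-clustered genes, from high to low. Pcdhgc3 at 19.0 stands near Pcdh18 on this scale, but it is at 6.30 against 20.3 when all exonic bases count as the length.

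Regulators of the clusters and partners of the proteins were read from lists drawn up with earlier results of these data known. Of 21 chromatin regulators of the clusters, 6 rose and 3 fell, or 42.9% called against 22.2% of all genes and 26.3% of protein-coding ones. Their median log2 fold change was -0.0062 against -0.0065 over all genes. The part of count level in the share called was not tested. Wiz, a zinc finger partner of the histone methyltransferase G9a, rose by 0.37 ± 0.04 (240 ± 8.48 against 185 ± 4.26 CPM, adjusted p = 2.37e-05, edgeR). Ehmt2, which encodes G9a, rose by 0.33 ± 0.04 (adjusted p = 0.000187, edgeR), and Dnmt1, the maintenance DNA methyltransferase, by 0.22 ± 0.03 (adjusted p = 0.000763, edgeR). The cohesin regulator Pds5a fell by 0.18 ± 0.04 (adjusted p = 0.00930, edgeR). Ctcf, which anchors promoter and enhancer contacts in the clusters, was at 239 ± 6.82 and 221 ± 9.46 CPM and was not called (log2 fold change 0.11 ± 0.04, adjusted p = 0.0560, edgeR).

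Of 20 binding and signalling partners 7 rose and 1 fell, or 40.0% called against 22.2% of all genes and 26.3% of protein-coding ones. Their median log2 fold change was 0.080. The part of count level in that share was not tested either. Cyfip2 and Wasf1 belong to the WAVE complex that Pcdh10, Pcdh17 and Pcdh19 contact. Cyfip2 rose by 0.75 ± 0.07 (165 ± 8.93 against 97.7 ± 11.7 CPM, adjusted p = 3.54e-05, edgeR) and Wasf1 by 0.32 ± 0.04 (adjusted p = 0.000197, edgeR), while Cyfip1 fell by 0.13 ± 0.04 (adjusted p = 0.0472, edgeR). Rac1, the GTPase that activates the complex, rose by 0.20 ± 0.03 (adjusted p = 0.00142, edgeR). Cdh2, the N-cadherin that Pcdh8 and Pcdh19 bind, rose by 0.23 ± 0.05 (adjusted p = 0.00597, edgeR).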

How the data were processed

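The authors deposited raw, unnormalized read counts per Ensembl gene identifier. The submitters' processing notes name bcl2fastq 2.20, the aligner STAR 2.7.8a, the counter featureCounts 1.6.3-p1, and both GRCm39 and rn6 as builds. Counting parameters and strand setting are not given in the sources used here, so reads of overlapping or antisense genes cannot be told apart. Symbols, biotypes and exon lengths came from GENCODE annotation of GRCm38 by identifier, and no gene coordinates are given from it.

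The members, gene lists and comparisons were chosen with earlier results of these data known. From the deposited counts, genes were filtered with filterByExpr (minimum count 10), scaled by TMM and tested with genotype as the only term by edgeR 4.0.16 (R 4.3.3; quasi-likelihood F test, robust, two-sided). P-values were adjusted by Benjamini-Hochberg across the whole table and called under 0.05. SEs were derived from the F statistic. CPM used TMM-scaled totals. The procedure was tested on simulated counts. Replicates are numbered in accession order. Named genes were every non-clustered protocadherin, every called clustered one, the 2 most abundant of each cluster in wild type, up to 4 called genes of each pathway list with the smallest p, and Emx2. Ctcf, Cyfip1, Pcdha3 and the genes named for shared exons, level per length or the interaction were added after their values were seen. Alternatives were other scalings, filters and thresholds, DESeq2 1.42.0, limma-voom (limma 3.58.1), the title code or library size as a block or alone, and each library left out. Counts of Pcdha, Pcdhb and Pcdhg directions over the alternatives were added after the data were seen.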

Additional observations from a re-analysis of the deposited data

Results flagged for a closer look

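In 46 groups of 5 libraries, the 23 named protocadherins in each genotype, a library was looked for whose gap to its nearest neighbour exceeded 0.71 of the group's whole range. Chance gives such a gap in about 1 of 20 groups, and 2 were found. Pcdhb19 in knockout replicate 3 stood at 7.04 CPM with the next library at 6.01 CPM, a gap of 0.939 of the range. Pcdhgc3 in wild-type replicate 2 stood at 40.3 CPM with the next at 33.4 CPM, a gap of 0.956 of the range.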

How the results depend on the processing

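Over 23 alternatives, the log2 fold changes of the 23 named protocadherins gave 529 values, of which 440 kept direction and side of the threshold, 67 kept direction only, 11 newly passed and 11 turned sign. Pcdh15 and Pcdh10 were called in all 23. The 8 calls among clustered genes became 4 at an adjusted p under 0.01, 4 in the large libraries, 1 in the small libraries, 0 in code 241022 and 3 in code 14922. The 7 calls among non-clustered genes stayed at 7 in the large libraries. They became 5 at an adjusted p under 0.01, 2 in the small libraries, 2 in code 241022 and 4 in code 14922. The 4039 calls over all genes became 2181 at an adjusted p under 0.01 and 3296 in the large libraries. They fell to 626 in the small libraries, 530 in code 241022 and 1710 in code 14922. Without 1 library, clustered calls ran from 6 to 9, non-clustered from 6 to 8 and all genes from 3072 to 3979. Sign turned, with no call on either side, for Pcdh11x (-0.55 in code 241022, and -0.050 to 0.40 without 1 library, lowest without knockout replicate 3), Pcdh19 (-0.030 in small libraries, -0.050 in code 14922), Pcdh20 (0.44 in small libraries, 0.047 in code 241022), Pcdha12 (-0.10 in large libraries, -0.28 in code 241022, and -0.019 to 0.17 without 1 library, lowest without wild-type replicate 5), Pcdhac2 (-0.089 in large libraries) and Pcdhb17 (0.14 in code 14922). Fewer libraries entered the fits by size and code, and the cause was otherwise not tested. With the code as a block, 7 clustered and 8 non-clustered genes were called. No paired analysis was possible because the labels give the genotypes no shared replicate numbers. Other scalings moved the median of all genes by at most 0.05.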

Other observations

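Pcdhgb8, annotated as a polymorphic pseudogene and so not among the protein-coding members, was counted at 3.24 CPM in knockout and 2.60 CPM in wild type on average and was not called (log2 fold change 0.29 ± 0.31, adjusted p = 0.563, edgeR). It lies in the Pcdhg cluster and shares exonic bases with every Pcdhg member.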
